A study of Mus musculus with 8 samples.

Results

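The organ of Corti is the sensory epithelium of the cochlea, and its baseline expression in newborn wildtype mice is described here from 4 RNA-seq libraries of micro-dissected tissue, the libraries titled wildtype #1 to #4. They are 4 of the 8 libraries of the series and were taken by their titles, with no value used to choose them. All 4 are total RNA depleted of ribosomal RNA, from tissue taken at postnatal day 0. The labels give their genotype as wildtype and name no strain, sex, litter or number of animals, nor whether these mice carried a Cre or a floxed allele. The other libraries of the series, from mice with a conditional deletion of Prox1, were not used here. With a single group there is no contrast to test, so every value below is a level, a rank or a spread over the 4 libraries, and nothing is called different by a test. Nothing says that the 4 samples came from separate mice, and the SDs measure the spread between these samples only, part of which may be technical.

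The organ of Corti carries inner and outer hair cells, which turn sound-driven movement of their stereocilia into receptor currents, on a bed of supporting cells that includes pillar, Deiters, inner phalangeal and border cells. On its inner side at birth lies the greater epithelial ridge, a transient epithelium that secretes much of the tectorial membrane, the collagen- and tectorin-rich sheet that overlies the hair bundles. The mouse cochlea is not yet hearing at this age: hair cells have formed but outer hair cells lack mature electromotility, and the ion transport that builds the endocochlear potential is still developing.

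Levels are given in CPM, a gene's count as a share of its library's total after scaling by trimmed mean of M-values (TMM). A rank, or a place within a list, given in CPM orders genes by their share of the reads, which longer transcripts raise. Levels of different genes are compared per kilobase (kb) of exon, as CPM per kb. The libraries held 39886702, 42318233, 35450437 and 32863533 gene counts in wildtype 1 to 4, so that 1 CPM stood for between 34.0 and 43.5 counts. Genes matched to RefSeq as protein-coding in the nuclear genome took 87.4 ± 0.871% of the counts (SD, n = 4). No library held the same values as another, and the libraries differed in noncoding RNA. The 7SL RNA pair Rn7s1 and Rn7s2, the RNA of the signal recognition particle, took between 1.57% of the counts in wildtype 4 and 3.31% in wildtype 1. Long noncoding RNA genes took between 1.67% in wildtype 3 and 2.61% in wildtype 2. The 95% Wilson intervals of these shares reach at most 0.0056 percentage points to either side, for counting error only. Wildtype 1 and 3 were high in 7SL RNA and low in long noncoding RNA, and wildtype 2 and 4 were the reverse. The locus Gm26917, which has no RefSeq match and so is in neither class, took 4.54, 4.10, 4.88 and 4.04% and was also higher in wildtype 1 and 3.

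The 5 marker genes were all detected in all 4 libraries, at 80.5 CPM or more in each, where 10.7% of the protein-coding genes reached a mean of 100 CPM and 51.5% a mean of 10 CPM. Tecta encodes alpha-tectorin, a main noncollagenous protein of the tectorial membrane. Its level was 5358, 5443, 6120.5 and 5899 CPM in wildtype 1 to 4, a mean of 5705 ± 365 CPM (SD, n = 4), and it ranked 6 among all 41079 genes of the table in each library. Myo7a, the unconventional myosin of the hair bundle, stood at 88.1, 80.5, 89.2 and 90.9 CPM, a mean of 87.2 ± 4.603 CPM. Wildtype 2 was the lowest for Myo7a and the other libraries lay close together. Sox2, a transcription factor of prosensory and supporting cells, had 92.4, 109.9, 113 and 109 CPM, a mean of 106 ± 9.35 CPM, with wildtype 1 below the others. Fgfr3, the fibroblast growth factor receptor of pillar and Deiters cells, had 96.5, 97.9, 97.3 and 99.5 CPM, the narrowest spread of the 5 at 97.8 ± 1.28 CPM. Prox1, a homeodomain transcription factor found in the same supporting cells, had 108, 113, 106 and 113 CPM, a mean of 110.2 ± 3.63 CPM. These levels rank Prox1 at 1948, Sox2 at 2046, Fgfr3 at 2246 and Myo7a at 2580 of 41079.

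Corrected for exon length, the order of the markers changed. Tecta stood at 777 ± 49.7 CPM per kb, Sox2 at 51.6 ± 4.54, Fgfr3 at 22.2 ± 0.291, Prox1 at 13.1 ± 0.432 and Myo7a at 11.4 ± 0.5998 CPM per kb (SD, n = 4). The ranges of neighbours in this order did not overlap across the 4 libraries. In CPM without the length, the ranges of Prox1 and Sox2, and of Sox2 and Fgfr3, did overlap. Among nuclear protein-coding genes with a length, Tecta held rank 20 per kb and Sox2 rank 723. In bulk tissue a low level can come from few cells of a type or from little RNA in each of them, and these cannot be told apart.

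**Figure D1:**
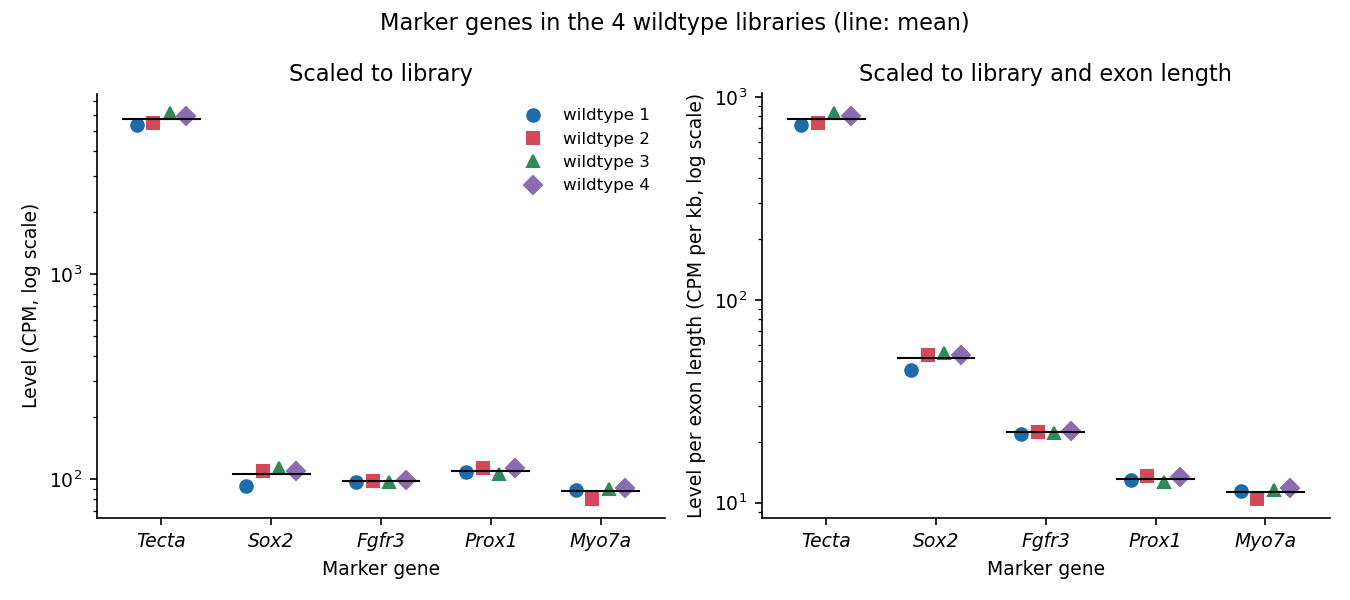
The 5 marker genes in each of the 4 wildtype libraries, in CPM on the left and in CPM per kb of exon on the right, both on log axes, with a line at the mean. Tecta lies between 5358 and 6120.5 CPM, the other 4 between 80.5 and 113 CPM, and only per kb do all 5 separate from one another.

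The stretches upstream of 3 marker genes are shown because these genes span the range of marker levels per kb, from Tecta at the top through Sox2 to Myo7a at the bottom. Each runs 5′ to 3′ over 200 bases, from 250 to 51 bases before the RefSeq start on GRCm38.p6, in the gene's own orientation. The start taken is the annotated start nearest to that of the GENCODE principal transcript. It lies 18 bases from the principal start for Tecta and 10 for Myo7a, but 410 for Sox2. Capitals mark matches to 3 promoter motifs searched on both strands: the TATA box as TATAAA or TTTATA, the CCAAT box as CCAAT or ATTGG, and the GC box as GGGCGG or CCGCCC.
Tecta: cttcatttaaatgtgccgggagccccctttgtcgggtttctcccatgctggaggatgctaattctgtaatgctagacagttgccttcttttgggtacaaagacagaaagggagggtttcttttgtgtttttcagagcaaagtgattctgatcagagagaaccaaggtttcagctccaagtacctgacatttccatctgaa
Sox2: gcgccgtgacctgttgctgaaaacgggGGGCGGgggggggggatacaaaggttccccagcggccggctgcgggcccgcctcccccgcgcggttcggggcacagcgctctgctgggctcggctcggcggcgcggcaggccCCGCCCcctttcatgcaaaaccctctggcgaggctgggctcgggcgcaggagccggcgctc
Myo7a: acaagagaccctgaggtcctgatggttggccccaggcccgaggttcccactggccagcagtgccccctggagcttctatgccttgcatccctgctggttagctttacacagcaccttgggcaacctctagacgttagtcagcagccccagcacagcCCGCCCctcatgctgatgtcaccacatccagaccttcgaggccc
They lie at chr9:42399998-42400197 on the minus strand for Tecta, chr3:34649745-34649944 on the plus strand for Sox2 and chr7:98119544-98119743 on the minus strand for Myo7a. Over the whole 250 bases before the start, Tecta held 0 matches to any of the 3 motifs, Sox2 held 1 CCAAT box and 2 GC boxes, and Myo7a held 2 GC boxes. The Sox2 CCAAT box, 46 bases before the start, and the nearer of the Myo7a GC boxes, 11 bases before it, lie outside the printed stretches. For comparison, a TATA box lay in 12% of the 16506 windows of that length in the RefSeq table, a CCAAT box in 35.9% and a GC box in 44.9%. The Tecta window was 43.2% G and C with an observed-to-expected CpG ratio of 0.173, against 72% and 0.833 for Sox2 and 63.2% and 0.242 for Myo7a, beside a median ratio of 0.564 over all windows. These matches describe letters in a window and say nothing of which factor binds there.

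Of the 41079 genes, 16864 had a mean of at least 1 CPM, which is 41.1%, and 9560 had no count in any of the 4 libraries. Among the 20140 protein-coding genes 14051 reached 1 CPM, which is 69.8%, 10380 reached 10 CPM, which is 51.5%, and 2149 reached 100 CPM, which is 10.7%. At the upper end, 57 genes had 1000 CPM or more. The 10 most abundant genes took 10.7 ± 1.06% of the counts (SD, n = 4), from 9.59% in wildtype 4 to 11.7% in wildtype 1, and 5.04% when only nuclear protein-coding genes were considered.

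The most abundant genes mixed noncoding RNA with matrix and housekeeping transcripts. Gm26917, a locus without a RefSeq match, came first at 44038 ± 5657 CPM (SD, n = 4), followed by Rn7s1 and Rn7s2 at 12249 and 12161 CPM, whose near-identical sequences mean that reads could be divided between them by the counting. Below Tecta came the nuclear long noncoding RNA Malat1 at 4185, 4989, 3084 and 4716 CPM, lowest in wildtype 3, and Rn7sk, the small RNA of the 7SK particle that restrains transcription elongation, at 3206 ± 541 CPM. Mitochondrial RNA was represented by COX1, subunit 1 of cytochrome c oxidase, at 3691 ± 159.6 CPM and by the ribosomal mt-Rnr2 at 3046 ± 392 CPM.

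Col2a1, the fibrillar collagen chain shared by cartilage and the tectorial membrane, was the leading nuclear protein-coding gene by CPM. Its values were 11215, 9815, 11115 and 10626 CPM in wildtype 1 to 4, highest in wildtype 1 and 3 and lowest in wildtype 2. The translation factors Eef1a1 and Eef2 stood at 7825 ± 609 and 2842 ± 245 CPM. Clu, the secreted chaperone clusterin, had 3374, 3358, 3946 and 3794 CPM, and Fstl1, a secreted follistatin-like glycoprotein, 3169 ± 321 CPM. The 25 most abundant genes also included the collagen chains Col1a2, Col9a1, Col9a2 and Col11a2, the secreted proteins Sparc and Igfbp5, the ubiquitin ligase gene Nedd4, the chaperone Hsp90ab1, the potassium channel tetramerisation domain gene Kctd12, and the cytoplasmic actins Actb and Actg1. These ran from 1669 CPM for Hsp90ab1 to 2683 CPM for Col1a2. Actb and Actg1 are close paralogs, so the division of reads between them is uncertain.

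Ranks per kb of exon cover nuclear protein-coding genes with a length, so mitochondrial genes such as COX1 are not in them. The leading genes were Eef1a1 at 4362 ± 339, Col2a1 at 2095 ± 125, Clu at 1999 ± 164 and Otor at 1370.3 ± 161 CPM per kb. Otor encodes otoraplin, a small secreted protein of the cochlea. Its values were 1424, 1154, 1537 and 1367 CPM per kb, lowest in wildtype 2. Oc90, which encodes the otoconial protein otoconin-90, held rank 22 per kb, with 656, 537, 897 and 784 CPM per kb and a wide gap between wildtype 2 and wildtype 3. The haemoglobin genes Hba-a2, Hba-a1 and Hbb-bs also ranked among the first 8 per kb, and all 3 were highest in wildtype 1. Of the 25 genes highest per kb, 19 were lowest in wildtype 2 and 19 were highest in wildtype 3. Among all 11989 protein-coding genes of at least 5 CPM, 33.9% were lowest in wildtype 2 and 38.4% highest in wildtype 3. The shares over all genes depend on the scaling: with plain CPM they were 25.1% and 18%. The counts over the 25 genes were taken under TMM only and can depend on the scaling too. Why many of the abundant genes shared these ends under TMM was not tested.

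**Figure D2:**
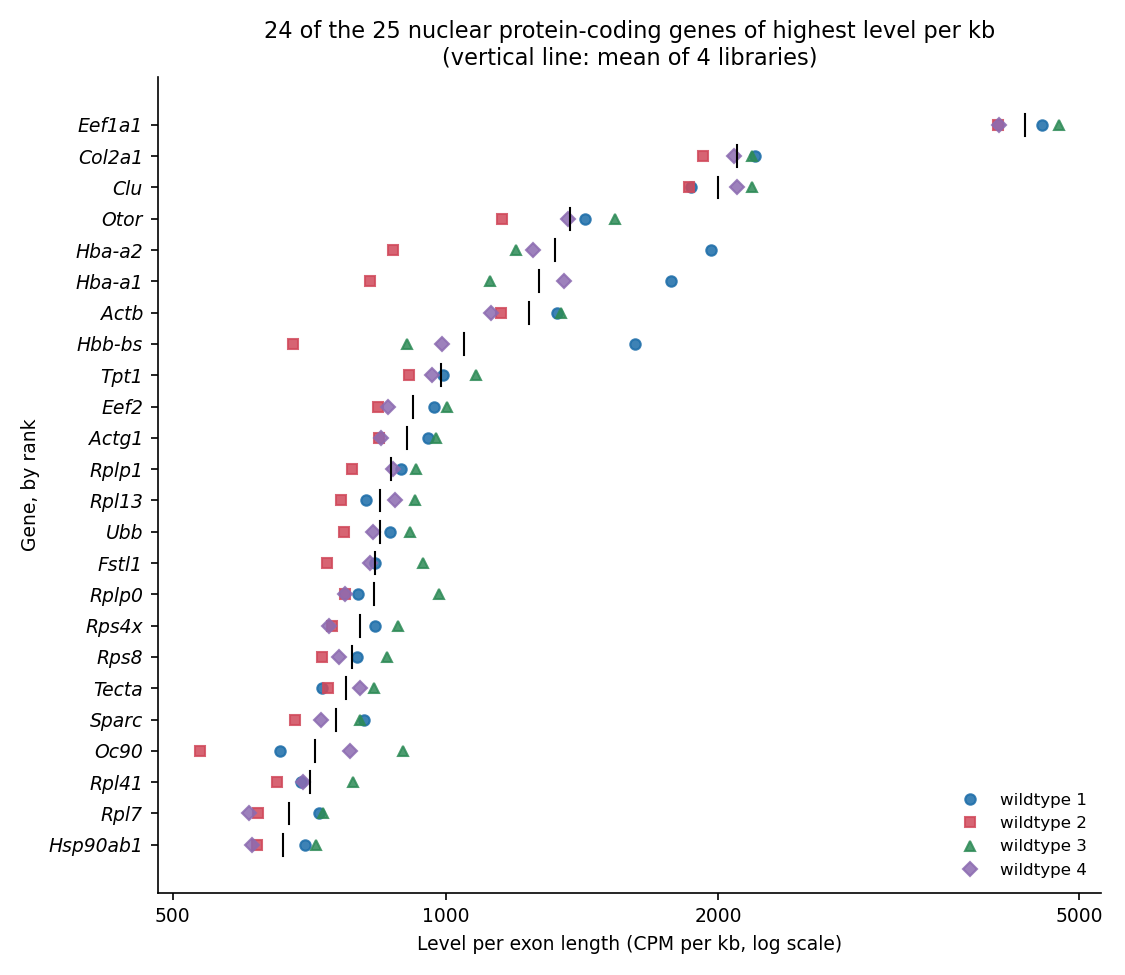
Levels of 24 of the 25 nuclear protein-coding genes of highest level per kb of exon, in CPM per kb on a log axis, with 1 symbol per wildtype library and a line at the mean of the 4. Eef1a1 leads at 4362 CPM per kb, Tecta is at 777, wildtype 2 (squares) is the lowest in most rows, and the haemoglobin genes spread most.

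Genes of the tectorial membrane matrix stood out as a group in level. Of 11 members 10 had at least 100 CPM, beside 10.7% of protein-coding genes, and their median was 420.3 CPM per kb, beside 3.88 CPM per kb over all protein-coding genes. Tectb, which encodes beta-tectorin, had 1345, 1273, 1529 and 1549 CPM, a mean of 1424 ± 136 CPM, higher in wildtype 3 and 4 than in wildtype 1 and 2. The collagen IX chains Col9a1, Col9a2 and Col9a3 had 2187, 1847 and 1280.2 CPM, and Col11a2 had 1841 CPM. Cartilage uses these collagens too, and the tissue source of their RNA cannot be told apart in bulk libraries.

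The noncollagenous members spanned a wide range. Otog, otogelin, stood at 972 ± 56.4 CPM. Otoa, otoancorin, which anchors the tectorial membrane to the cells below, stood at 504, 440.1, 493 and 567 CPM, highest in wildtype 4. Otogl, the otogelin-like gene, had 315, 310.5, 323 and 309 CPM, values that differ by little between libraries. Per kb, Tecta at 777 CPM per kb came after Col2a1 and before Col9a2 at 632 ± 38.6 CPM per kb, with no overlap. Col9a1 at 533, Tectb at 502 and Col9a3 at 420.3 CPM per kb followed, and from Col9a2 down to Col9a3 the range of each overlapped that of the next. Ceacam16, a later-acting component of the striated-sheet matrix, was the exception at 0.282, 0.0689, 0.147 and 0.176 CPM, below 1 CPM in each library.

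Among markers of the greater epithelial ridge, all 8 listed genes reached 10 CPM and 7 reached 100 CPM, beside 51.5% and 10.7% of protein-coding genes. Tecta and Otoa belong to this list as well. Epyc, the small leucine-rich proteoglycan epiphycan, had 747, 755, 876 and 741 CPM, with wildtype 3 above the others. Itih5, an inter-alpha-trypsin inhibitor heavy chain, had 414 ± 36.98 CPM, and Dcn, decorin, which mesenchyme also makes, had 239 ± 23.4 CPM. Calb1, a calcium-buffering protein, stood at 201 ± 11.5 CPM, Fgf10, a fibroblast growth factor, at 133 ± 10.6 CPM, and Crabp1, a retinoic acid binding protein, at 86.7, 85.4, 114 and 95.3 CPM. Per kb, Epyc came second to Tecta at 305 ± 25.2 CPM per kb, and Otoa, Dcn and Crabp1 had overlapping ranges.

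All 27 shared hair cell markers reached 1 CPM, beside 69.8% of protein-coding genes. Of them 18 reached 10 CPM, which is 66.7% beside 51.5%. Their median was 4.51 CPM per kb, beside 3.88 over protein-coding genes. The highest in CPM was Myo6, the minus-end-directed myosin of the hair cell apex, at 261, 239.5, 275 and 259 CPM. Cdh23 encodes the upper part of the tip link, the filament that pulls on the transduction channel, and had 95.4, 78.8, 113 and 111 CPM, lowest in wildtype 2. Pcdh15, the lower part of the tip link, had 59.1, 72.5, 67.5 and 63.3 CPM and ran the other way, highest in wildtype 2. Ptprq, a phosphatase receptor of the stereocilia, had 95.6, 79.4, 94.6 and 110.01 CPM. Rasd2, a small GTPase gene, had 96.9, 79.9, 97.3 and 96.1 CPM, with wildtype 2 below the rest.

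Transcription factors that specify or maintain hair cells were each above 1 CPM in every library. Pou4f3, needed for hair cell survival, had 20.4, 19.02, 22.1 and 22.3 CPM, with all 4 libraries close together. Barhl1 had 21.6 ± 1.91 CPM, Gfi1 11.4 ± 1.69 CPM, Lhx3 9.38 ± 0.426 CPM and Atoh1, the factor that starts hair cell differentiation, 7.47, 8.59, 9.49 and 7.55 CPM (SD, n = 4 for the means). Per kb, Pou4f3 stood at 8.74 ± 0.654 and Atoh1 at 3.901 ± 0.452 CPM per kb. The calcium-binding proteins Calb2 and Pvalb, which neurons also make, had 38.2 ± 7.12 and 25.9 ± 2.82 CPM.

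The transduction channel genes were low, and Tmc2 was above Tmc1. Tmc2 and Tmc1 encode pore-forming subunits of the hair cell transduction channel, and Tmc2 is known as the form used early in development. Tmc2 had 5.44, 3.35, 4.64 and 5.78 CPM and Tmc1 1.62, 2.25, 2.204 and 2.32 CPM. Per kb these are 1.49 ± 0.336 for Tmc2 and 0.490003 ± 0.0757 CPM per kb for Tmc1, and the lowest Tmc2 library, 1.04, lay above the highest Tmc1 library, 0.542. Among other parts of the transduction complex, Lhfpl5 had 13.5 ± 1.77 CPM, Cib2 44.5 ± 5.53 CPM, Tmie 11.5 ± 0.573 CPM and Tomt, an enzyme-like protein needed to bring the channel to the bundle, 2.401 ± 0.6295 CPM.

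Of the inner hair cell genes all 6 reached 1 CPM, beside 69.8% of protein-coding genes. Tbx2, a transcription factor of inner hair cells that is also found outside them, had 135, 141, 147 and 141 CPM. Otof, otoferlin, the calcium sensor of transmitter release, had 108, 94.5, 115 and 137 CPM, highest in wildtype 4 and lowest in wildtype 2. Slc17a8, which encodes the vesicular glutamate transporter of inner hair cells, had 5.595, 5.696, 6.35 and 6.08 CPM, Fgf8 3.13 ± 0.234 CPM and Cabp2, a calcium-binding protein of the synapse, 1.51 ± 0.142 CPM. Per kb, the ranges of Tbx2, Otof, Atp2a3 and Fgf8 were separate, and those of Slc17a8 and Cabp2 overlapped.

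Of the 11 outer hair cell genes 9 reached 1 CPM, which is 81.8% beside 69.8% of protein-coding genes. At 10 CPM there were 5, which is 45.5% beside 51.5%. The late markers were near the bottom. Ikzf2, a transcription factor of outer hair cells, had 25.7, 30.6, 28.1 and 27.3 CPM and Bcl11b 22.1 ± 2.15 CPM. Strip2 had 22.4, 21.1, 22.9 and 36.99 CPM, with wildtype 4 above the others. Slc26a5, which encodes the motor protein prestin, had 1.797, 1.401, 1.44 and 1.61 CPM. Ocm, oncomodulin, a calcium buffer of mature outer hair cells, had 0.077002, 0.115, 0.206 and 0.117 CPM. The transcription factor gene Neurod6 had 0.1797, 0.276, 0.353 and 0.264 CPM. Ocm and Neurod6 lay below 1 CPM in each library. The cholinergic receptor subunits of the efferent synapse, Chrna9 and Chrna10, had 7.18 ± 0.782 and 9.01 ± 1.07 CPM.

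In the shared hair cell list 18 of 27 genes were lowest in wildtype 2 and 16 were highest in wildtype 4, beside 33.9% and 13.1% of protein-coding genes of at least 5 CPM. With plain CPM the counts were 17 and 22, and the shares over all genes 25.1% and 28.4%. The mean log2(CPM + 0.5) over this list was 4.32, 4.17, 4.29 and 4.42 in wildtype 1 to 4, an SD of 0.10 log2 units.

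All 16 shared supporting cell genes reached 10 CPM and 10 reached 100 CPM, beside 51.5% and 10.7% of protein-coding genes. Their median was 56.1 CPM per kb. Notch1, the receptor of lateral inhibition, had 716, 692, 748 and 669 CPM, with little spread. Its ligand Jag1, which supporting cells carry, had 371, 448, 412 and 411 CPM, lowest in wildtype 1. The Notch targets Hey1 and Hes1 had 51.5 ± 2.29 and 16.5 ± 0.8499 CPM, and Lfng, which modifies Notch, 65.8 ± 2.38 CPM. Gata3, a zinc finger factor of the whole sensory domain, had 274, 287, 303 and 272 CPM. The SOX factors Sox9 and Sox10 had 250.4 ± 26.1 and 251 ± 12.5 CPM, and per kb Sox10 was at 90.1 ± 4.495, Sox9 at 60.6 ± 6.30004 and Sox2 at 51.6 ± 4.54 CPM per kb. Cdkn1b, the cell cycle inhibitor that holds the postmitotic state, had 117, 119, 124 and 123 CPM, and Id1, Id2 and Id3, inhibitors of differentiation, had 59.7, 87.9 and 133 CPM. The list's mean log2(CPM + 0.5) had an SD of 0.05 over libraries, and wildtype 3 was the highest.

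All 12 pillar and Deiters cell genes reached 1 CPM, and 10 reached 10 CPM, beside 69.8% and 51.5% of protein-coding genes. The list was led in CPM by Prss23, a serine protease gene, at 116, 108, 122 and 122 CPM, then Prox1 and Fgfr3. Lgr5, a receptor of R-spondin found in cochlear progenitor-like supporting cells, had 63.3, 73.8, 68.5 and 63.1 CPM. Ngfr, the p75 neurotrophin receptor of pillar cells, had 59.1, 61.2, 40.5 and 43.1 CPM, and wildtype 1 and 2 were clear of wildtype 3 and 4. Glia carry Ngfr as well. Emid1 had 49.01 ± 5.84 CPM, Hes5 23.2 ± 1.87 CPM, Hey2 20.99 ± 1.02 CPM and Npy, neuropeptide Y, 16.5 ± 2.09 CPM. Fgf3 was lowest at 2.54 ± 0.634 CPM. Per kb, Prss23 had 34.5 ± 1.94, Npy 29.1 ± 3.69, Emid1 25.2 ± 2.997 and Fgfr3 22.2 ± 0.291 CPM per kb, each overlapping with the next, while the ranges of Fgfr3 and Hes5 did not overlap. All 3 inner phalangeal and border cell markers reached 10 CPM, among them Slc1a3, a glutamate transporter, at 166 ± 15.5 CPM and Fabp7, a fatty acid binding protein, at 85.95 ± 8.07 CPM, and glia make these too.

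**Figure D3:**
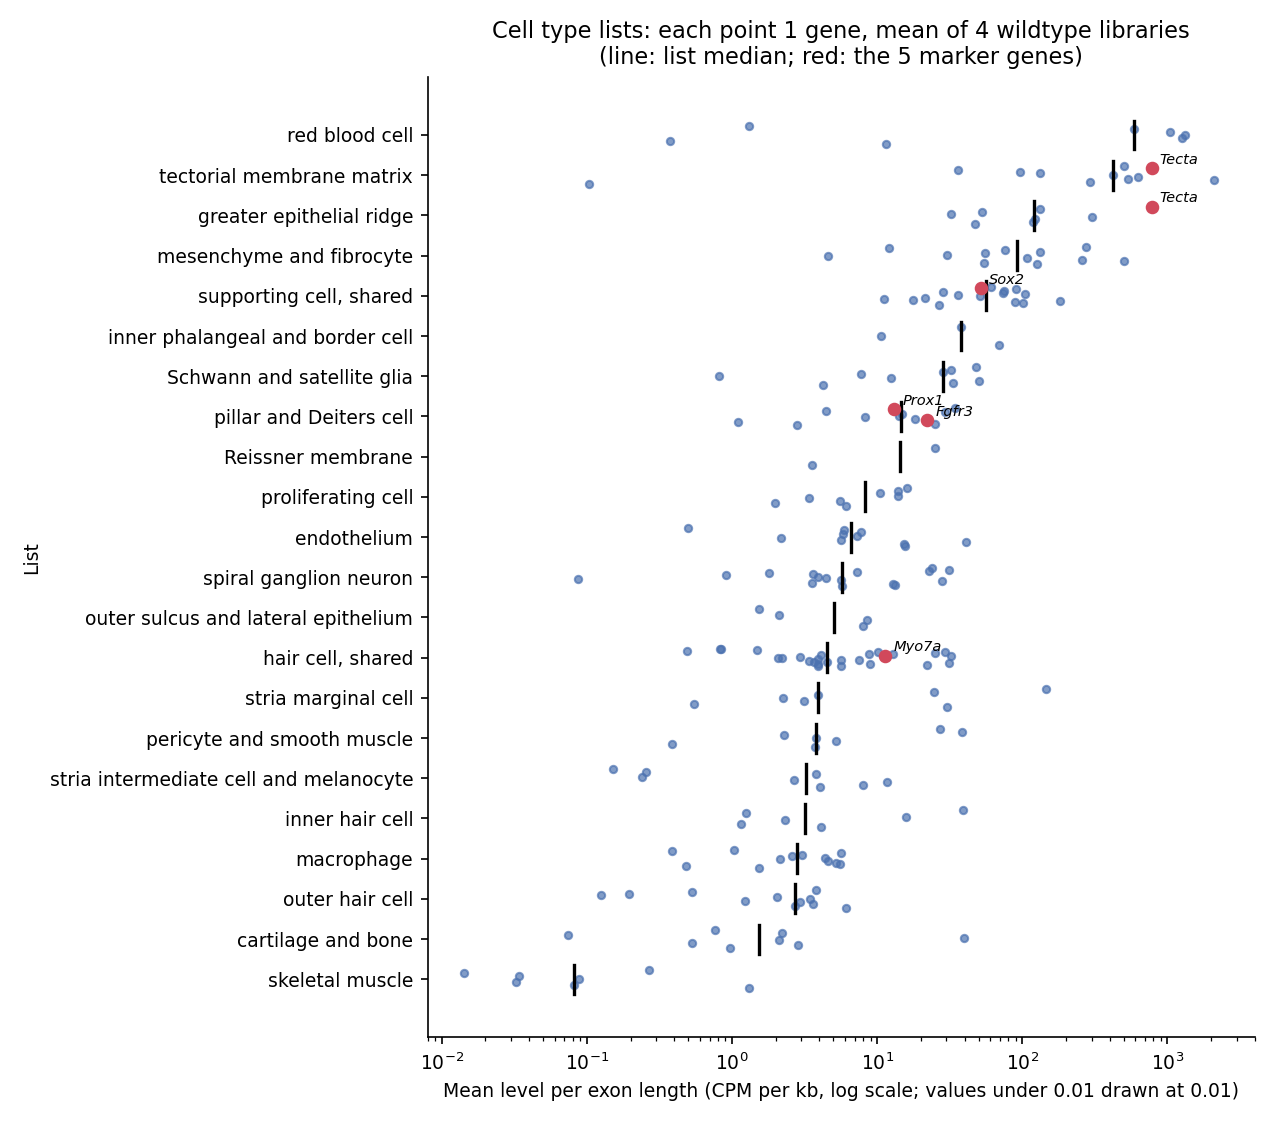
Mean level over the 4 wildtype libraries of each gene in the 22 cell type lists, in CPM per kb of exon on a log axis, ordered by list median, with the 5 markers in red. Red blood cell, tectorial membrane and greater epithelial ridge lists sit highest, mesenchyme lies above the supporting cell list, and skeletal muscle sits at the bottom.

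The dissected tissue held RNA of cells outside the epithelium. All 12 mesenchyme markers reached 1 CPM, beside 69.8% of protein-coding genes, and 10 reached 100 CPM, beside 10.7%, with a median of 92.5 CPM per kb. The fibrillar collagen gene Col1a2 had 3051, 2646, 2619 and 2417 CPM, and Col3a1 had 1595, 1415, 1347 and 1393 CPM. Both were highest in wildtype 1. Pou3f4, a transcription factor of the otic mesenchyme, had 410.4, 363, 416 and 353 CPM and Tbx18 358 ± 39.8 CPM. Coch, the cochlin of fibrocytes, had 392, 320.2, 382 and 257 CPM, lowest in wildtype 4. Otos, otospiralin, a fibrocyte protein, was the lowest at 3.24 ± 0.594 CPM.

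Red cell, glial and neuronal genes were also present, and their counts at 1 CPM are read beside 69.8% of protein-coding genes. Hba-a1, an alpha-globin gene, had 1239, 577, 783 and 944 CPM, and all 7 red cell genes that reached 1 CPM were highest in wildtype 1 and lowest in wildtype 2, beside 22.5% and 33.9% of protein-coding genes of at least 5 CPM. With plain CPM 6 of the 7 were highest in wildtype 1 and 6 lowest in wildtype 2. Hba-a1 and Hba-a2 are near-identical, so their split is uncertain. All 9 Schwann and satellite glia genes reached 1 CPM, led by Erbb3, the neuregulin receptor, at 276, 327, 309 and 296 CPM, with the myelin gene Mbp at 63.04 ± 9.898 CPM. Of 16 spiral ganglion neuron genes 15 reached 1 CPM, and Neurod1, an early neuronal factor, did not, at 0.282, 0.345, 0.206 and 0.117 CPM. Syt1, synaptotagmin, had 148, 134, 163 and 160.002 CPM. The neurofilament gene Nefl had 96.97, 118, 68.2 and 93.2 CPM. The neurotrophin receptor gene Ntrk3 had 93.8, 113, 59.03 and 80.1 CPM. The neuronal tubulin gene Tubb3 had 52.9, 59.8, 29.0001 and 37.4 CPM. In 13 of the 15 neuronal genes wildtype 3 was the lowest and in 11 wildtype 2 was the highest, beside 16.4% and 26% of protein-coding genes of at least 5 CPM. With plain CPM the counts were 13 and 12, and the shares over all genes 28.6% and 36.8%. Syt1 was highest in wildtype 3.

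Vessel and immune markers had medians of 6.58 CPM per kb for endothelium and 2.82 CPM per kb for macrophages, beside 3.88 over protein-coding genes. Their counts at 1 CPM are read beside 69.8% of protein-coding genes. All 10 endothelial genes reached 1 CPM, led by Emcn, an endothelial sialomucin, at 105 ± 8.07 CPM and Cdh5, the junction cadherin of vessels, at 61.7 ± 9.18 CPM, and 9 of 10 were lowest in wildtype 4, beside 27.6% of protein-coding genes of at least 5 CPM. Of 7 pericyte and smooth muscle genes 6 reached 1 CPM, with Pdgfrb at 209.99 ± 16.3 CPM. Acta2, smooth muscle actin, was the exception at 1.23, 1.08, 0.353 and 0.4697 CPM, a mean of 0.783 CPM. Of 12 macrophage genes 11 reached 1 CPM, with the mannose receptor Mrc1 the highest in CPM at 30.2 ± 3.55 CPM and Aif1 below 1 CPM at 0.489 ± 0.1896 CPM.

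Skeletal muscle genes were near absent: 1 of 7 reached 1 CPM, Acta1 at 2.18, 3.47, 1.44 and 0.4404 CPM. The others were Myh8 at 0.695, Tnnt3 at 0.3102, Ckm at 0.223, Myh3 at 0.198, Mylpf at 0.0278 and Myod1 at 0.0266 CPM. The means of Mylpf and Myod1 lie under a floor of 3 counts, which is between 0.0689 and 0.0881 CPM per library. Bone and cartilage markers were mostly low, with 7 of 8 at 1 CPM or more, beside 69.8% of protein-coding genes. Matn1, a cartilage matrilin, had 75.7, 72.9, 77.7 and 89.3 CPM, Acan, aggrecan, 7.15 ± 1.07 CPM, and Matn3 0.223 ± 0.0843 CPM. All 8 proliferation genes reached 1 CPM, led by Mki67 at 137, 141, 150.3 and 133 CPM and Top2a at 83.2 ± 5.35 CPM, and their list mean had an SD of 0.04 log2 units.

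Genes of the stria vascularis and lateral wall were uneven between libraries. Slc12a2, the sodium-potassium-chloride cotransporter that marginal cells use but epithelium also has, stood at 956, 871, 1058 and 897 CPM, and Lrp2, megalin, at 408 ± 32.7 CPM. Esrrb, a nuclear receptor of marginal cells, had 32.1, 14.01, 21.4 and 3.23 CPM. Kcne1, the auxiliary subunit of the marginal cell potassium channel, had 13.8, 4.52, 8.55 and 1.91 CPM, a wide gap between wildtype 1 and wildtype 4. Bsnd, barttin, the chloride channel subunit of marginal cells, had 3.59, 0.6201, 1.53 and 0.294 CPM. Wildtype 1 was the highest and wildtype 4 the lowest for Esrrb, Kcne1 and Bsnd alike. The pore subunit Kcnq1 had 17.04, 8.38, 11.9 and 10.1 CPM. Genes of melanin synthesis, made by intermediate cells, had the same ends. Dct had 17.04, 7.03, 8.99 and 2.79 CPM, Pmel 11.4, 6.59, 9.08 and 5.05 CPM and Tyr 2.87, 1.15, 1.998 and 0.117 CPM, each highest in wildtype 1 and lowest in wildtype 4. Mitf, the regulator of the melanocyte lineage, had 14.1, 14.9, 14.4 and 13.5 CPM with little spread, as did Kit, the stem cell factor receptor, at 61.6, 61.2, 62.7 and 58.7 CPM. Tyrp1, with no count in wildtype 4, and Mlana lay below 1 CPM in each library, at 0.412 and 0.216 CPM. The outer sulcus and Reissner membrane lists were short. Slc26a4, the anion exchanger pendrin, had 6.55, 5.26, 3.44 and 3.61 CPM, Lgr6 57.7 ± 5.51 CPM and Bmp4 16.6 ± 1.42 CPM, with Slc26a4 highest in wildtype 1. Of Reissner membrane, Otx2 had 9.11, 8.06, 13.6 and 11.8 CPM and Vmo1 13.96, 10.4, 20.3 and 22.8 CPM, both lowest in wildtype 2.

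Deafness genes, that is, mouse counterparts of genes behind hereditary hearing loss, were nearly all detected. Of 126 genes 120 had a mean of at least 1 CPM, which is 95.2% beside 69.8% of all protein-coding genes, and 100 reached 10 CPM, which is 79.4% beside 51.5%. In each of the 4 libraries 118 were at 1 CPM or more. Their median was 7.92 CPM per kb beside 3.88 over protein-coding genes. Of the 126 genes 48 are also in the cell type lists, so these counts are not separate from those above. Counts of the deafness groups below are read beside the same 69.8% and 51.5%.

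The extracellular matrix group had the highest median per kb of the 7 deafness groups, 129 CPM per kb, with 15 of 16 genes at 1 CPM or more. Beside the tectorial membrane genes it holds Col11a1 at 1479.9 ± 101 CPM. Of the basement membrane collagens, Col4a5 had 101, 83.8, 102 and 99.4 CPM, Col4a6 8.44 ± 1.296 CPM, Col4a4 7.97 ± 0.768 CPM and Col4a3 1.61 ± 0.276 CPM, and per kb the order was Col4a5 at 14.8, Col4a6 at 1.27, Col4a4 at 0.789 and Col4a3 at 0.188 CPM per kb.

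All 34 hair bundle genes reached 1 CPM and 30 reached 10 CPM. The highest in CPM were Actg1 at 1769.8 CPM and the nonmuscle myosin gene Myh9 at 415 ± 26.6 CPM, both of which most cells use, then Myo6, given above, and Rdx, radixin, at 228 ± 14.6 CPM. Myh14 had 184 ± 7.58 CPM. Beside Myo7a, Cdh23 and Pcdh15, the group holds other Usher syndrome genes. Ush1c, harmonin, had 67.9, 78.3, 64.2 and 88.9 CPM, highest in wildtype 4. Adgrv1, a large adhesion receptor of the ankle links, had 52.2, 48.2, 45.6 and 54.7 CPM, with little spread. Whrn, whirlin, had 17.9 ± 1.63 CPM, Clrn1, clarin-1, 10.4 ± 0.894 CPM and Ush1g, the scaffold SANS, 1.31, 1.26, 1.06 and 0.822 CPM. Per kb these were 22.4 for Ush1c, 2.37 for Adgrv1, 3.96 for Whrn, 3.25 for Clrn1 and 0.337 CPM per kb for Ush1g. Strc, stereocilin, which links the tips of outer hair cell stereocilia, had 13.1, 8.91, 10.8 and 16.3 CPM. Espn, an actin bundler, had 28.5 ± 3.51 CPM, and Myo15a, which carries cargo to the tips, 24.4, 31.2, 22.5 and 25.4 CPM.

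The synapse group had 6 of 6 genes at 1 CPM or more. Otof, given above, is one of them. Cacna1d, the pore of the hair cell calcium channel, which neurons also use, had 62.5, 70.6, 53.4 and 69.02 CPM, lowest in wildtype 3. Gipc3, a scaffold protein, had 27.2 ± 4.598 CPM and Pjvk, pejvakin, 2.85, 1.38, 2.91 and 2.55 CPM.

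In the ion transport and barrier group 19 of 20 genes reached 1 CPM. Gjb2, connexin 26, of the gap junctions that couple supporting cells and fibrocytes, had 449.6, 408, 492 and 412 CPM and its partner Gjb6, connexin 30, 36.3, 35.6, 35.1 and 40.6 CPM. Per kb Gjb2 stood at 183 ± 16.2 and Gjb6 at 17.5 ± 1.196 CPM per kb, with no overlap. The tight junction genes Cldn9 and Ildr1 had 88.5 ± 7.29 and 50.7 ± 3.01 CPM, Marveld2, tricellulin, 16.5 ± 1.29 CPM, and Cldn14 8.06, 5.99, 8.26 and 10.04 CPM. Atp2b2, the calcium pump of the hair bundle, had 65.8, 64.5, 68.4 and 74.9 CPM, and Tmprss3, a transmembrane serine protease, 44.3 ± 3.59 CPM.

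Transcription factor genes had 15 of 17 at 1 CPM or more, 7 of them at 100 CPM or more. Eya1, which acts from the otic placode on, had 309, 337, 333 and 329 CPM, lowest in wildtype 1. Eya4 had 183 ± 9.78 CPM and Chd7, the chromatin remodeller of CHARGE syndrome, 204, 203, 208 and 199.7 CPM. Sall1 had 57.8 ± 5.11 CPM, Grhl2, an epithelial factor, 40.3 ± 3.48 CPM, Tbx1 38.3 ± 4.04 CPM and Snai2 3.995 ± 0.534 CPM. Foxi1, known from endolymphatic sac and other ion-transporting cells, had 0 counts in all 4 libraries, which allows between 0.0689 and 0.0881 CPM per library at a floor of 3 counts. Pax3, of the neural crest, had 0.513, 0.459, 0.206 and 0.0587 CPM.

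All 12 signalling genes reached 1 CPM. Ednrb, an endothelin receptor, had 323, 333, 303 and 309 CPM and its ligand gene Edn3 7.88, 5.24, 7.87 and 7.66 CPM, so that receptor and ligand RNA were both present in each library. Met, the receptor of hepatocyte growth factor, had 72.6, 68.9, 88.1 and 79.7 CPM and its ligand Hgf 5.52, 5.76, 7.23 and 4.58 CPM. Homer2, a scaffold protein, had 48.3 ± 1.68 CPM, S1pr2, a sphingosine phosphate receptor, 44.98 ± 3.195 CPM and Gpsm2, which orients the hair bundle, 42.7, 40.1, 41.99 and 42.6 CPM.

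In the metabolic and remaining group 19 of 21 reached 1 CPM, led by Crym, crystallin mu, which binds thyroid hormone, at 481, 399, 427 and 349 CPM, and Cd164, a sialomucin, at 226 ± 21.2 CPM. Ccdc50 had 165 ± 5.62 CPM, the DNA methyltransferase Dnmt1 118 ± 4.06 CPM and the peroxisomal Hsd17b4 93.8 ± 6.47 CPM. Dcdc2a, a doublecortin-domain gene, had 1.03, 0.597, 1.12 and 1.12 CPM and so straddled 1 CPM, and Tspear stood at 0.796, 0.505, 0.323 and 0.294 CPM.

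Ion channel genes were detected about as often as protein-coding genes at large at a threshold of 1 CPM, and less often at 10 CPM. Of 310 genes in 19 families 222 had at least 1 CPM, which is 71.6% beside the 69.8% of all protein-coding genes, and 110 reached 10 CPM, which is 35.5% beside 51.5%. Their median was 1.08 CPM per kb beside 3.88. At a threshold of 1 CPM per kb the count was 158 of 310, beside 65.0% of protein-coding genes with a length. A total of 14 channel genes reached 100 CPM and 0 reached 1000 CPM. Counts of the channel families below are read beside the same 69.8% and 51.5%.

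The highest channel gene in CPM was Trpm3, a calcium-permeable TRP channel, at 898, 1086, 944 and 964 CPM, highest in wildtype 2. Other members of its family were Pkd2, polycystin-2 of primary cilia, at 128 ± 5.39 CPM, Trpm7, a channel-kinase, at 127 ± 4.34 CPM, Trpm5 at 43.7 ± 2.67 CPM and Trpm4 at 36.2 ± 1.77 CPM. Mcoln3, the mucolipin of the varitint-waddler mouse, a hair cell channel, had 23.4, 22.3, 31.3 and 28.2 CPM. Per kb Trpm3 stood at 67.1 ± 5.53 and Pkd2 at 24.5 ± 1.03 CPM per kb, and Gjb2, the channel gene highest per kb, was above both.

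Connexins and pannexins had 11 of 23 genes at 1 CPM or more, which is 47.8% beside 69.8% of protein-coding genes. Gjc1 had 44.8 ± 2.88 CPM, Gjc3, a glial connexin, 35.6, 38.5, 26.9 and 37.3 CPM and Gja1, connexin 43, 27.7, 32.7, 33.97 and 23.99 CPM. Per kb, Gjb6 at 17.5 and Gjc1 at 16.5 CPM per kb overlapped, and Gja1 and Gjc3 overlapped at 8.78 and 8.64 CPM per kb.

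Chloride channels had 19 of 23 genes at 1 CPM or more, which is 82.6% beside 69.8% of protein-coding genes. The scramblase and channel gene Ano6 had 165, 157, 171 and 158 CPM and Ano1, the calcium-activated chloride channel that takes part in spontaneous activity of the greater epithelial ridge, 119, 137, 132 and 120.3 CPM. The endosomal transporters Clcn5, Clcn3 and Clcn4 had 106, 79.1 and 71.1 CPM. Of the purinergic receptors 5 of 7 reached 1 CPM. P2rx3, a sensory neuron receptor, had 40.7, 42.9, 24.3 and 29.3 CPM, P2rx7 27.7 ± 2.11 CPM, P2rx4 18.3 ± 1.02 CPM, P2rx2, a deafness gene, 7.78, 5.604, 7.23 and 8.34 CPM and P2rx6 4.31 ± 0.362 CPM.

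Potassium channels were numerous and individually low. Of 40 voltage-gated genes 33 reached 1 CPM, 15 reached 10 CPM and 0 reached 100 CPM, led by Kcna6 at 54.8, 66.3, 47.5 and 54.3 CPM, then Kcna2 at 43.5 ± 5.48, Kcnb2 at 35.9 ± 4.25, Kcnq3 at 35.01 ± 5.55 and Kcna1 at 31.9 ± 5.55 CPM. Wildtype 3 was the lowest library for 20 of the 33 and wildtype 2 the highest for 17, beside 16.4% and 26% of protein-coding genes of at least 5 CPM. With plain CPM the counts were 22 and 18, beside 28.6% and 36.8%. Of 15 inward rectifier genes 8 reached 1 CPM, which is 53.3% beside 69.8% of protein-coding genes. Kcnj10, the Kir4.1 channel of supporting cells, glia and strial intermediate cells, led them at 37.5, 47.96, 39.5 and 46.4 CPM, and Kcnj11 and Kcnj13 followed at 12.2 ± 0.942 and 6.98 ± 0.6098 CPM. Of 14 two-pore genes 7 reached 1 CPM, with Kcnk1 at 23.8 ± 2.502 and Kcnk2 at 14.2 ± 2.72 CPM. Of 8 calcium- and sodium-activated genes 7 reached 1 CPM, with Kcnma1, the BK channel, at 25.8, 26.8, 18.8 and 21.4 CPM and Kcnn3, an SK channel, at 11.9 ± 2.53 CPM. Kcnn2, the SK channel coupled to the cholinergic receptor of hair cells, had 4.57, 4.29, 3.91 and 4.697 CPM. Among 17 auxiliary subunits 11 reached 1 CPM, led by Kcnab2 at 19.8 ± 3.35 CPM.

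Calcium channel pores had 7 of 9 genes at 1 CPM or more, and all 7 reached 10 CPM. Cacna1e, an R-type pore, had 130.01, 148, 109 and 120.02 CPM, highest in wildtype 2 and lowest in wildtype 3. Of the T-type pores Cacna1g had 79.2 ± 3.48 CPM and Cacna1h 51.9, 67.5, 51.4 and 50.5 CPM, with wildtype 2 alone at the top for Cacna1h. Cacna1c, the L-type pore of muscle and neurons, had 40.99 ± 3.496 CPM. Per kb, Cacna1d stood at 7.11 ± 0.8705 and Cacna1e at 8.31 ± 1.08 CPM per kb, and their ranges overlapped. Of 16 auxiliary subunits 13 reached 1 CPM, led by Cacnb3 at 100.4, 107, 112 and 106 CPM. All 6 intracellular release channel genes reached 1 CPM: Itpr1, Itpr2 and Itpr3, the receptors of inositol trisphosphate, had 161 ± 4.43, 107 ± 3.03 and 107 ± 5.56 CPM, and Ryr2, the highest ryanodine receptor gene, 8.56 ± 2.03 CPM.

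Sodium channels of the voltage-gated family had 12 of 14 genes at 1 CPM or more, none of them at 100 CPM, led by Scn9a at 19.7, 25.2, 13.7 and 15.6 CPM and Scn3b at 18.2 ± 1.98 CPM. Nalcn, the sodium leak channel, had 106, 96.6, 108 and 104 CPM, and the acid-sensing channel Asic1 had 32.1 ± 3.47 CPM. Of 13 genes of the TMC, Piezo and TMEM63 group 12 reached 1 CPM. Of the pressure-gated channels Piezo1 had 102, 80.8, 85.3 and 71.8 CPM, highest in wildtype 1, and Piezo2 57.7, 46.3, 55.6 and 55.7 CPM. The group also holds Tmem63b, an osmosensitive channel, at 76.7, 81.9, 76.01 and 83.5 CPM.

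Transmitter receptor genes are read here against the 69.8% of protein-coding genes at 1 CPM or more, with no test between families. Of 18 ionotropic glutamate receptor genes 17 reached 1 CPM, led by Grik5, a kainate receptor subunit, at 141, 139, 134 and 142 CPM, with Gria3 at 52.1 ± 2.099 CPM. Of 24 GABA-A and glycine receptor genes 12 reached 1 CPM, led by Glrb at 32.4, 28.1, 32.9 and 26.5 CPM. Of 16 nicotinic genes 11 reached 1 CPM, led by the neuronal Chrnb2 at 17.4, 16.9, 11.3 and 12.5 CPM. Of 10 HCN and cyclic nucleotide-gated genes 5 reached 1 CPM, with the pacemaker channel Hcn4 at 12.9 ± 1.99 CPM. A total of 9 channel genes had no count in any of the 4 libraries, namely Cnga3, Gabra6, Gabrr1, Gabrr3, Glra3, Gje1, Kcnj1, Kcnk15 and Trpc2, which at 3 counts allows at most 0.0881 CPM in a library.

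**Figure D4:**
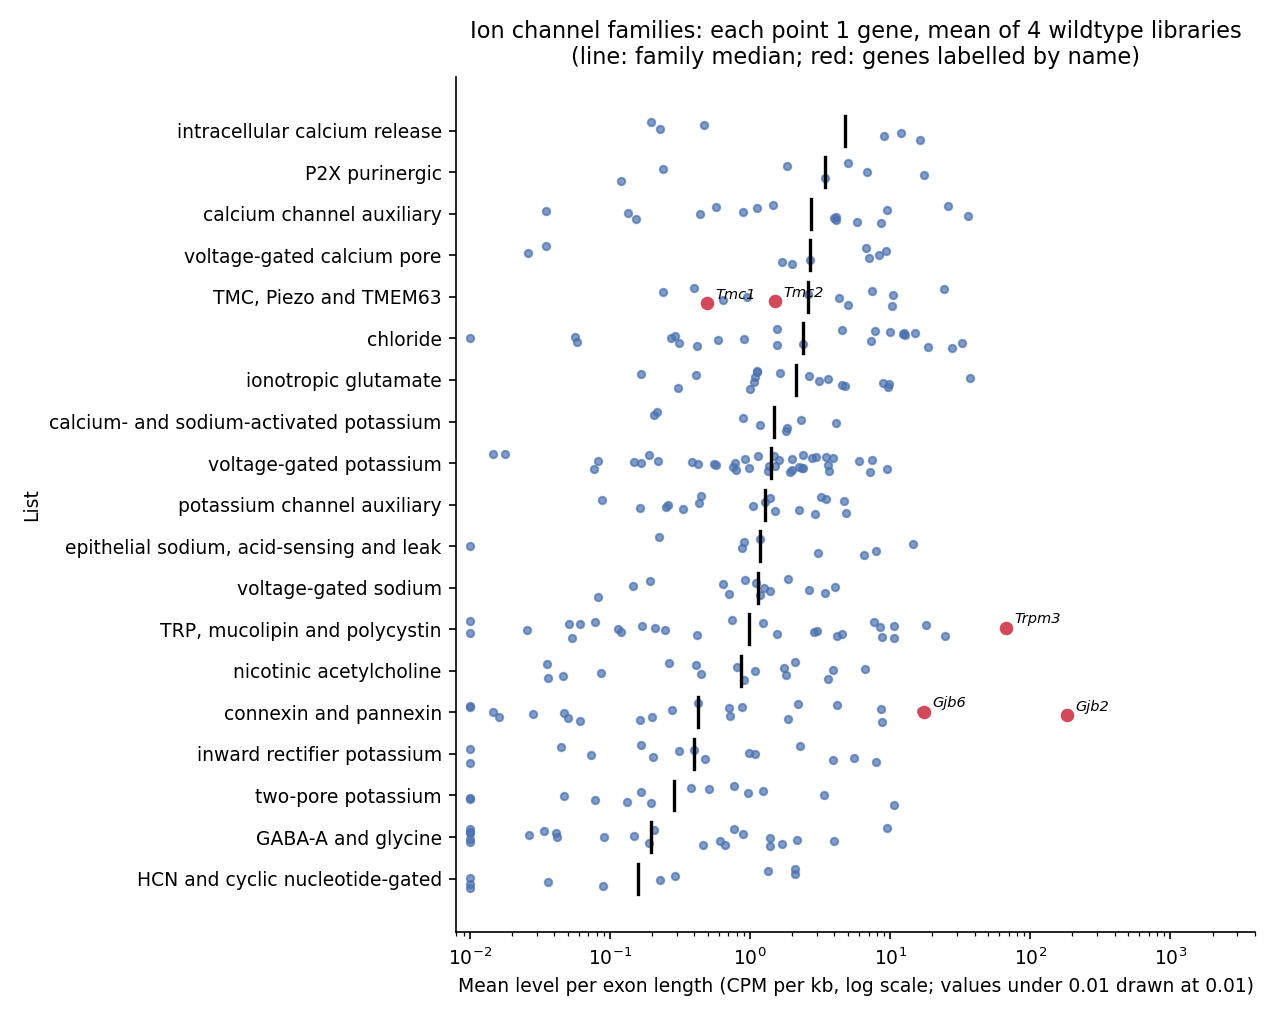
Mean level over the 4 wildtype libraries of each gene in 19 ion channel families, in CPM per kb of exon on a log axis with values under 0.01 drawn at 0.01, ordered by family median. Gjb2 at 183 and Trpm3 at 67.1 CPM per kb stand above the rest, and Tmc2 lies to the right of Tmc1.

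Spread between the 4 libraries was small for most genes. Over 12960 genes with a mean of at least 5 CPM, the SD of log2(CPM + 0.5) had a median of 0.10, against a median of 0.04 from counting error alone. An SD over 0.5 was seen in 141 of them, which is 1.09%. Among cell type genes of at least 5 CPM it was 10 of 166, or 6.02%, among deafness genes 2 of 109, or 1.83%, and among channel genes 5 of 147, or 3.40%. The 2 deafness genes were Esrrb and Kcne1.

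The count of variable genes depended on single libraries. It was 78 without wildtype 2 and 82 without wildtype 3, and 247 without wildtype 1 and 224 without wildtype 4. It was 77 with a pseudocount of 2. Of the 141 genes 94 were highest in wildtype 2 and lowest in wildtype 3, or 66.7%, where 11.9% of all genes of at least 5 CPM had that order. With plain CPM these became 157 of 200 genes and 17.5% of all. Among the 141 were 68 protein-coding genes, 48 long noncoding RNA genes and 25 of other or unmatched class. Of the 514 long noncoding RNA genes of at least 5 CPM 52.3% had the same order, beside the difference in their summed share given above, whose part in this was not tested.

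Trim30c, a member of a TRIM gene cluster, had the largest SD, with 16.4, 21.9, 0.0294 and 3.61 CPM and 637, 952, 1 and 123 counts in wildtype 1 to 4. It was all but absent in wildtype 3. Gm42226, a gene model with a clone-style name, had 11.8, 17.6, 0.0588 and 17.4 CPM and was also near 0 in wildtype 3. For Trim30c, close paralogs make the assignment of its reads uncertain. Zfp990, a zinc finger gene, had 6.31, 15.3, 3.53 and 13.7 CPM, with wildtype 2 and 4 above the other libraries. Xlr3b, from a multicopy X-linked family, had 7.03, 8.11, 2.497 and 4.73 CPM, and Rps27a, a ribosomal protein and ubiquitin fusion gene, 188, 67.98, 101 and 72.6 CPM, with wildtype 1 alone at the top. Both have copies elsewhere in the genome, and reads could be divided among them. Plac9 likewise was high in wildtype 1 alone, at 41.99, 11.4, 16.04 and 14.6 CPM, and so was the small Cajal body RNA Scarna10, at 12.5, 4.87, 7.05 and 4.76 CPM.

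Some of the variable genes are strial, and were highest in wildtype 1 and lowest in wildtype 4. These were Esrrb, Kcne1 and Dct, whose values are given above. Bpifb3, at 10.5, 3.33, 4.58 and 1.76 CPM, and Fst, follistatin, a secreted activin antagonist, at 14.3, 11.3, 13.4 and 5.64 CPM, had the same order of ends. These ends were not particular to strial genes, and the noncoding Rn7s1, Rn7s2 and Scarna10 had them too. All 7 marginal cell genes and 6 of 8 intermediate cell and melanocyte genes were at 1 CPM or more, beside 69.8% of protein-coding genes. Of the 7 marginal cell genes 5 were highest in wildtype 1 and 3 lowest in wildtype 4. Of the 6 intermediate cell and melanocyte genes 3 were highest in wildtype 1 and 5 lowest in wildtype 4. Among protein-coding genes of at least 5 CPM 22.5% were highest in wildtype 1 and 27.6% lowest in wildtype 4. The summed level of the marginal cell list was 1487, 1366, 1640.3 and 1418 CPM in wildtype 1 to 4, most of it Slc12a2 and Lrp2. The summed level of the intermediate cell and melanocyte list was 146, 139, 137 and 127 CPM, most of it Kit and Kcnj10. The part of these cells in the spread of other genes was not tested. The mean log2(CPM + 0.5) of the marginal cell list had an SD of 0.56 over the 4 libraries, and of the intermediate cell and melanocyte list 0.41.

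Several of the variable genes known from neurons were lowest in wildtype 3, as were 13 of the 15 neuron markers described above. Slc17a7, the vesicular glutamate transporter of spiral ganglion neurons, had 9.32, 12.2, 3.56 and 9.45 CPM. Nefh, the heavy neurofilament, had 13.5, 19.4, 7.17 and 17.1 CPM, and the potassium channel gene Kcnk9 10.1, 13.6, 4.495 and 9.66 CPM. All of these were highest in wildtype 2. Snhg11, a noncoding RNA, had 23.1, 37.1, 10.7 and 27.7 CPM, Cpne6, a copine, 7.16, 11.8, 3.29 and 5.58 CPM and Vstm2l 6.62, 8.31, 2.38 and 5.34 CPM, in the same order of ends. Pianp ran the other way at 5.65, 14.01, 16.95 and 11.3 CPM, lowest in wildtype 1. The summed level of the 16 neuron markers was 710.5, 786, 524 and 631 CPM in wildtype 1 to 4, and its part in the spread of these genes was not tested. Ttn, titin, of striated muscle, had 11.1, 21.2, 7.05 and 8.81 CPM, highest in wildtype 2, the library also highest for Acta1.

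Single genes outside the strial and neuronal genes also differed. Trh, thyrotropin-releasing hormone, had 4.18, 4.13, 5.82 and 21.02 CPM, with wildtype 4 above the others. Crhbp, the corticotropin-releasing hormone binding protein, had 5.98, 1.77, 5.11 and 7.93 CPM, lowest in wildtype 2. Slc4a1, the red cell anion exchanger, had 10.3, 3.61, 3.702 and 6.08 CPM and is among the red cell genes already counted above. Mmp9, a secreted gelatinase, had 7.39, 6.18, 2.497 and 5.64 CPM, lowest in wildtype 3.

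**Figure D5:**
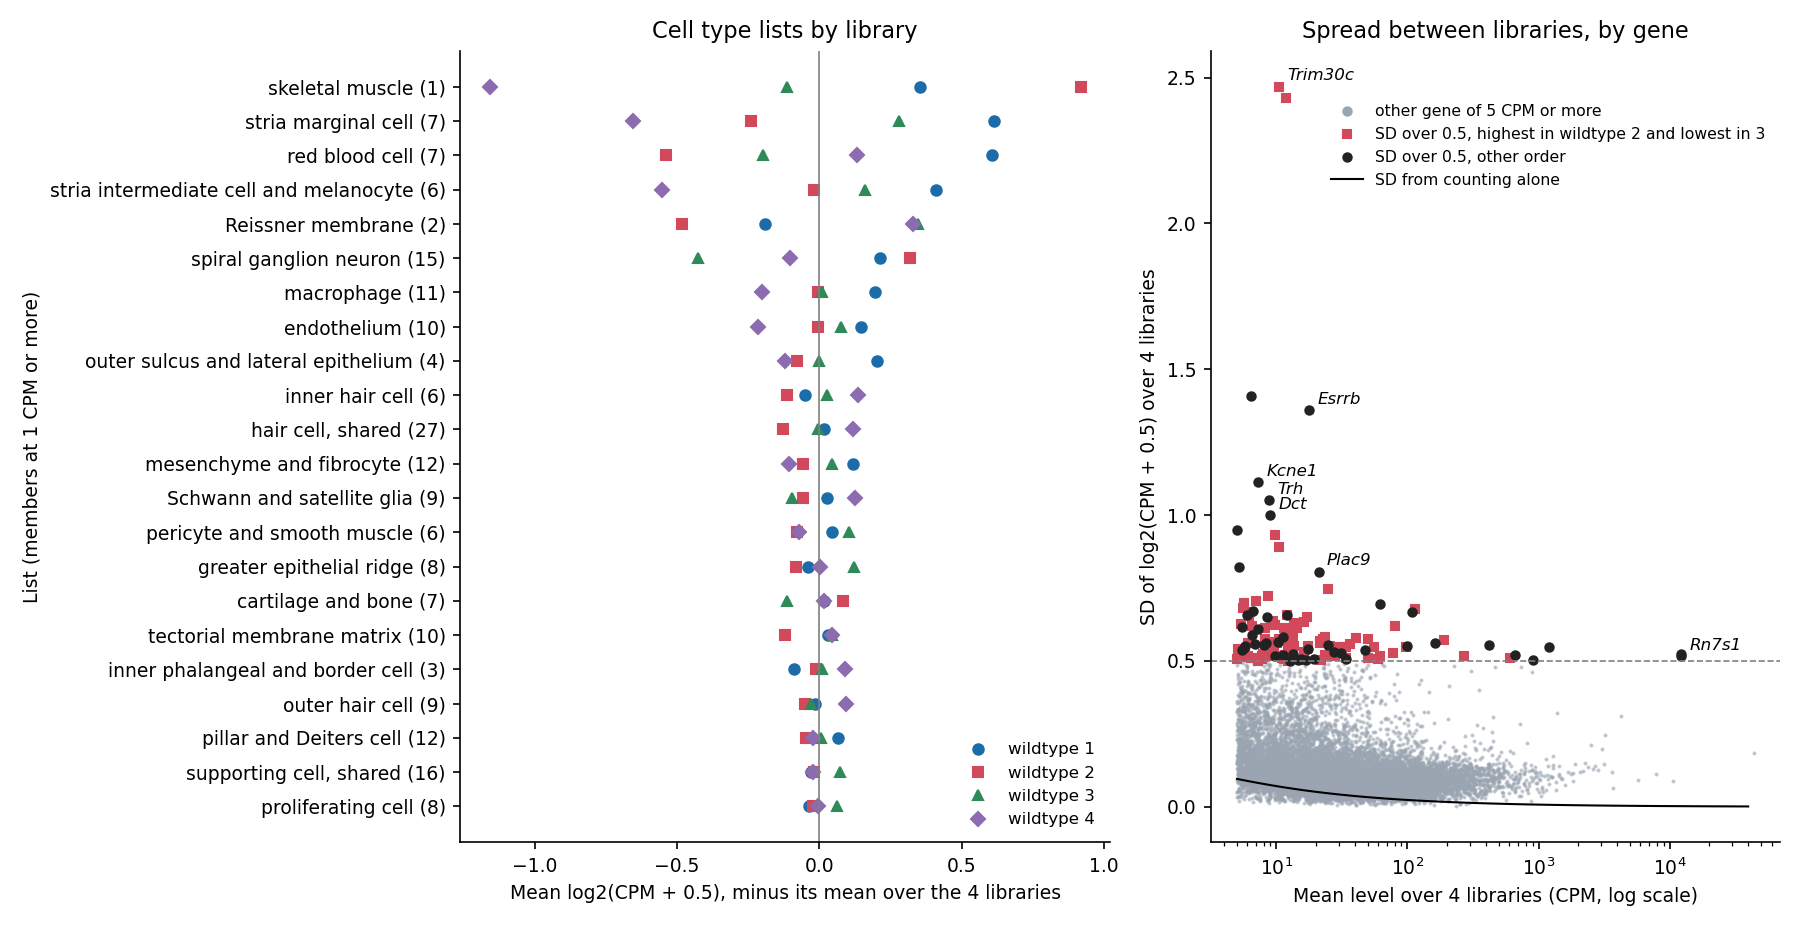
Left, the mean log2(CPM + 0.5) of each cell type list in each wildtype library, minus its mean over the 4, with the number of genes in parentheses. Right, the SD of log2(CPM + 0.5) of each gene of at least 5 CPM against its mean on a log axis, with the counting error as a line: 141 genes lie above 0.5, and red squares mark the 94 highest in wildtype 2 and lowest in wildtype 3.

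As list means, lists of the sensory epithelium lay near the middle or the low end of the spreads. A list mean averages over its genes and can vary less than they do. The median SD of single members at 1 CPM or more was 0.18 for shared hair cell genes and 0.08 for supporting cells. For endothelium it was 0.14, for mesenchyme 0.15 and for spiral ganglion neurons 0.39. The SD of the mean log2(CPM + 0.5) was 0.05 for supporting cells and for pillar and Deiters cells, 0.07 for outer hair cells, 0.08 for the tectorial membrane, 0.09 for the greater epithelial ridge, 0.10 for shared hair cell genes and 0.11 for inner hair cells. Among surrounding tissue it was 0.10 for mesenchyme, 0.10 for Schwann cells and satellite glia, 0.16 for endothelium and 0.16 for macrophages. It was 0.34 for spiral ganglion neurons, 0.41 for Reissner membrane, which rests on 2 genes, and 0.49 for red blood cells. The 0.88 of the skeletal muscle list rests on Acta1 alone. It was 0.52 without wildtype 4 and 0.49 with a pseudocount of 2. Over all 7 members it was 0.28, below the 0.56 of the marginal cell list. The median over the 22 lists was 0.10. A single library often set these values. Without wildtype 2 the SD was 0.07 for shared hair cell genes and 0.01 for the tectorial membrane. Without wildtype 3 it was 0.01 for supporting cells, 0.05 for the greater epithelial ridge, 0.02 for proliferation genes and 0.21 for neurons. Without wildtype 4 it was 0.07 for inner and 0.02 for outer hair cells, 0.06 for Schwann cells and satellite glia, 0.08 for endothelium and 0.22 for the intermediate cell and melanocyte list, and without wildtype 1 it was 0.03 for pillar and Deiters cells.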

How the data were processed

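RNA was measured in 4 wildtype libraries of micro-dissected organ of Corti at postnatal day 0, grouped by their titles. The authors deposited raw read counts per gene, for 41079 genes. Per the submitters' processing notes, FastQC 0.12.1, cutadapt 4.3, HISAT2 2.2.1, featureCounts, DESeq2 and the build GRCm39 were used. Which annotation was counted, whether strand was used and what was done with multi-mapping reads is not given in the sources used here, so overlapping genes, antisense genes and close paralogs cannot be told apart with certainty. Per the labels' protocols, total RNA was depleted of ribosomal RNA before library preparation, so nuclear and other noncoding RNA is included.

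From the counts, CPM were computed with edgeR 4.0.16 in R 4.3.3 with TMM factors from these 4 libraries alone, and log2 values with a pseudocount of 0.5. A gene counted as detected at a mean of 1 CPM or more, and as variable at an SD of log2(CPM + 0.5) over 0.5 among genes with a mean of at least 5 CPM. Since 1 CPM stood for between 34.0 and 43.5 counts, counting error weighs mainly on genes near or below 1 CPM. Only the rule for variable genes was tried on simulated counts, which had a spread set in advance and were scaled without TMM. Detection, TMM scaling and levels per kb were not tested in this way. Levels per kb use the union of GENCODE M21 basic exons on GRCm38, in place of the protein table first planned, matched by symbol; 97.6% of protein-coding genes at 1 CPM or more had a length. Gene classes came from RefSeq on GRCm38.p6, matched by symbol for 90.5% of genes. Promoter sequences are RefSeq's for the same build.

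The members and lists were chosen with earlier results of these data known. Genes are named by rule: the 5 markers, the 25 highest in CPM, the 25 highest in SD without a clone-style name, up to 5 per list by CPM, and cell type and deafness genes below 1 CPM. Other list members, and genes named for their level per kb, were chosen after their values were seen. Alternatives changed the scaling, thresholds, pseudocount and the libraries used. Some genes that these rules name are not reported here. The 4 other libraries of the series were not used.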

Additional observations from a re-analysis of the deposited data

Results flagged for a closer look

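In each group of 4 values, the gap from the highest or lowest library to its nearest neighbour was divided by the whole range and set against Dixon's critical value at 95%. Chance passes this in about 1 of 20 groups, and here 14 of 326 values passed, 4.29%. By kind these were 9 of 264 named genes, 5 of 48 list means and 0 of 14 measures of the libraries. Over all kinds 2 were in wildtype 1, 4 in wildtype 2, 5 in wildtype 3 and 3 in wildtype 4. The list means were less evenly placed: 10.4% of them passed, 4 in wildtype 3 and 1 in wildtype 2.

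Wildtype 1 was set apart, as the highest, for Runx2, a bone transcription factor, with a ratio of 0.978 (18.25, 14.7, 14.63 and 14.62 CPM in wildtype 1 to 4) and for Plac9 with 0.849. Wildtype 2 was the lowest for S100b, a glial calcium-binding protein, with a ratio of 0.9503 (77.2, 53.4, 76.9 and 78.1 CPM), and for Rasd2 with 0.936. It was the highest for Cacna1h with 0.921 and the lowest for the mean log2(CPM + 0.5) of the tectorial membrane list, with 0.917 (10.69, 10.54, 10.7 and 10.71).

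Wildtype 3 was the highest for Epyc with a ratio of 0.902 and for the mean of the supporting cell list with 0.889 (7.02, 7.03, 7.12 and 7.03 on the log2 scale). It was the lowest for 3 channel lists: calcium channel auxiliary subunits with 0.914 (3.92, 3.92, 3.78 and 3.91), intracellular calcium release channels with 0.9065 (4.68, 4.70, 4.47 and 4.68) and TRP, mucolipin and polycystin channels with 0.864 (3.89, 3.89, 3.85 and 3.89). Wildtype 4 was the highest for Trh with a ratio of 0.9003 and for Strip2 with 0.885, and the lowest for the mitochondrial ribosomal RNA mt-Rnr2 with 0.841 (3160, 3292, 3267 and 2465 CPM). The values of the other genes stand in the report.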

How the results depend on the processing

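The count of 141 variable genes moved most with the settings: it was 282 among genes of at least 1 CPM, 46 among those of at least 20 CPM, 347 with no filter on the mean, 77 with a pseudocount of 2, and 12 by an edgeR tagwise biological coefficient of variation over 0.35. Leaving out 1 library gave between 78 (wildtype 2 left out) and 247 (wildtype 1 left out). The share of the 10 most abundant genes was 5.04% among nuclear protein-coding genes only. The level of Fgfr3, whose libraries differed by very little, was 99.7 CPM with mitochondrial, haemoglobin and ribosomal RNA genes removed before TMM, between 96.07 and 99.29 CPM with 1 library left out, and 101.9 CPM without wildtype 1 and 3, where Prox1 was 116.9 CPM. Genes at 1 CPM or more numbered 16864 to 16898 under other scalings and 16776 to 17101 with libraries left out. Over these settings deafness genes numbered 119 to 121 and channel genes 221 to 222. Other thresholds gave other counts: at 0.5 CPM 18825, 121 and 246, and at 2 CPM 15148, 115 and 197. At 1 CPM per kb, where genes without a length drop out, the counts were 14259, 113 and 158. Per kb of the longest coding transcript they were 12640, 113 and 164. Of the spreads of lists and the levels per kb, 9 moved and 106 did not under other settings, and 28 moved and 82 did not with libraries left out, where a list's SD counts as moved past 1.5 times and a level past 1 SD. The cause was not tested. Depth limits statements to genes above the floor of 3 counts. No paired analysis was possible because only 1 group was analysed.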
